A study of Mus musculus with 9 samples.

Results

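The mitochondrial respiratory chain genes are the nuclear genes whose symbols mark them as parts of complexes I to V. They were taken by symbol alone, as every gene whose name begins with Nduf, Uqcr, Cox4 to Cox8 or Atp5, together with Sdha, Sdhb, Sdhc and Sdhd. The rule found 88 of the 12388 genes measured, namely 45 of complex I, 4 of complex II, 8 of complex III, 14 of complex IV and 17 of complex V. Of these, 87 were in both comparisons, and Cox8b was in the knock-in comparison alone. Cox4i1 and the subunits encoded by mitochondrial DNA are not analysed here.

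Retinal RNA was taken at E12.5 in the CD-1 strain of mice, with no cell sort named, in 3 groups of 3 samples, 9 in all. The KI samples carried Neurog2GFP on one chromosome and Mash1KI on the other, the MUT samples were Neurog2GFP/GFP, and the HET samples were Neurog2GFP/+. Neurog2 is a proneural basic helix-loop-helix gene, and every group carried at least 1 GFP allele, so no wild-type retina was used here. Optic cups were taken in pairs for being GFP-positive and dissociated to single cells. The labels name no litter or mother for the samples, and the p-values measure only the spread between these samples. The comparisons ask what differed when both Neurog2 alleles carried GFP (MUT against HET), and when Mash1KI took the place of 1 of those GFP alleles (KI against MUT).

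The respiratory chain sits in the inner mitochondrial membrane. Complexes I and II pass electrons from NADH and succinate to ubiquinone, complex III passes them on to cytochrome c, and complex IV, cytochrome c oxidase, hands them to oxygen. Complexes I, III and IV pump protons, and complex V, the ATP synthase, makes ATP as the protons flow back. In the embryonic nervous system dividing progenitors are generally known for strong glycolysis, and neurons for relying more on respiration.

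For each gene the deposited files held 1 RPKM value per group and transcript, that is reads corrected for transcript length and for the mapped total, in which the authors had pooled the 3 samples. No value per sample was at hand, so no SD can stand beside a level, and sequencing depth is likewise unknown. The replicate error enters through the authors' Cuffdiff test, and a gene is called where a transcript of it had a q-value of 0.05 or less. Transcripts of a gene were summed, and the log2 ratio of the sums is given without a test. The MUT samples are in both comparisons, so a high or low MUT value enters both with opposite sign. The Neurog2 level, at 112 RPKM in KI and 35.5 RPKM in MUT retinas, and at 36.2 RPKM in MUT and 30.2 RPKM in HET retinas, did not check the genotype labels, since the tables do not separate its coding sequence from the rest of its transcript. KI titles also carry another number than the MUT and HET titles, and any difference behind that number cannot be told apart from the genotype.

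Respiratory chain transcripts were abundant in all 3 groups. The median member stood at 136 RPKM in KI, 149 RPKM in MUT and 126 RPKM in HET retinas, against medians over all genes of 14.1 RPKM in KI, 13.9 RPKM in MUT and 13.9 RPKM in HET retinas. In the table of the KI comparison, where Cox8b joins the members, the MUT median was 133 RPKM. Members made up 2.98% of the summed RPKM of all transcripts in KI, 2.94% in MUT and 2.79% in HET retinas. Complex I members, assembly factors among them, were the least abundant as a class, with a median of 86.2 RPKM in KI, 80.0 RPKM in MUT and 66.9 RPKM in HET retinas. Complex V members had medians of 326 RPKM in KI, 291 RPKM in MUT and 258 RPKM in HET retinas. Those of complex IV were 237 RPKM in KI, 307 RPKM in MUT and 260 RPKM in HET retinas. The KI median of complex IV takes in Cox8b, which the other 2 leave out. Over the same 14 genes as in KI, the MUT median was 260 RPKM. In HET retinas the medians of complexes IV and V were thus nearly level.

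**Figure D1:**
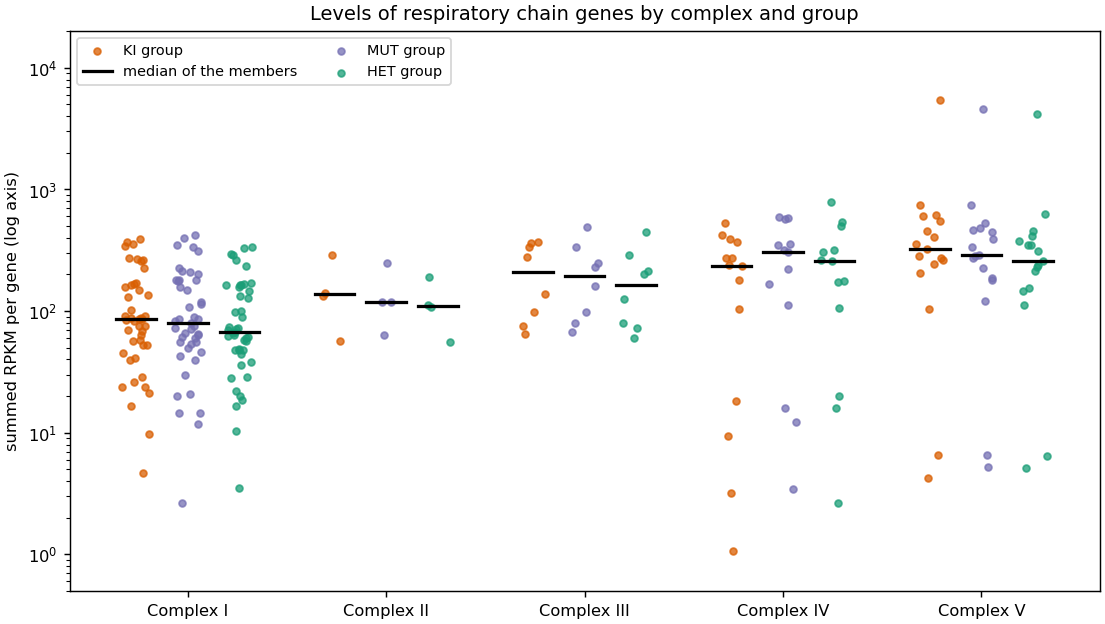
Summed RPKM of each respiratory chain gene (log axis) in KI, MUT and HET retinas, by complex, with 1 point per gene and the median as a bar. Medians of complex I lay lowest, at 86.2, 80.0 and 66.9 RPKM in KI, MUT and HET retinas, and Atp5b stood far above the other genes, at 5463, 4632 and 4149 RPKM.

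Atp5b, the catalytic beta subunit of the ATP synthase, reached 5463 RPKM in KI, 4632 RPKM in MUT and 4149 RPKM in HET retinas. It ranked 7, 9 and 7 among all genes of those groups. Atp5a1, which encodes the alpha subunit that shares the catalytic head with it, stood at 551 RPKM in KI, 484 RPKM in MUT and 413 RPKM in HET retinas. The level of Atp5b was 9.91 times that of Atp5a1 in KI, 9.58 times in MUT and 10.1 times in HET retinas. Atp5j, a peripheral stalk subunit, came next in complex V, at 739 RPKM in KI, 751 RPKM in MUT and 629 RPKM in HET retinas. The 3 genes Atp5g1, Atp5g2 and Atp5g3 encode the same mature subunit c of the rotor ring. Their order was the same in each group, Atp5g2 first with 605 RPKM in KI, 528 RPKM in MUT and 457 RPKM in HET retinas, then Atp5g3 and Atp5g1.

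Where a subunit has a ubiquitous and a tissue-restricted isoform, the ubiquitous form prevailed at this stage. Cox7a2 exceeded Cox7a1, the form typical of heart and muscle, 32.5 times in KI, 33.0 times in MUT and 39.6 times in HET retinas. Cox6b1 exceeded Cox6b2, the form typical of testis, 29.1 times in KI, 19.3 times in MUT and 16.6 times in HET retinas. Ndufa4 exceeded its hypoxia-inducible relative Ndufa4l2 79.4 times in KI, 127 times in MUT and 84.1 times in HET retinas. Both of these have complex I symbols, although Ndufa4 is now generally placed in complex IV. Cox8b, another muscle form, stood at 1.06 RPKM in KI and 0.697 RPKM in MUT retinas, near the lowest value that the table of the KI comparison lists in the higher group of a transcript (1.04 RPKM), which it passed in the KI retinas only. Its ubiquitous partner Cox8a was 220 times as high in KI retinas.

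In MUT against HET retinas no respiratory chain gene was called, and most of the set was slightly higher in MUT. Of 87 members, 78 had a higher summed RPKM in MUT retinas and 9 a lower one, and the median log2 ratio was 0.20. Over all 12247 genes 54.6% were higher and the median was 0.03. Abundant genes as a whole leaned the same way: of the 2095 genes with a mean of at least 50 RPKM, 64.4% were higher in MUT, with a median log2 ratio of 0.09, while of the 70 members at that level 66 were higher. By the test in the authors' deposited table, 0 of 87 members had a q of 0.05 or less, where 1.34% of all genes were called (0.245% higher and 1.09% lower in MUT). At a q of 0.1 or less there was 1 member, Cox7b, where 1.69% of all genes passed, and 12 members had an unadjusted p under 0.05, where 10.9% of all genes did.

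The difference was spread over the complexes. All 17 members of complex V, all 8 of complex III and all 4 of complex II were higher in MUT retinas, with median log2 ratios of 0.21, 0.20 and 0.17. In complex I, 39 of 45 were higher, and in complex IV 10 of 13, with medians of 0.21 and 0.17. Within complex I the 7 core subunits, which carry the flavin and the iron-sulfur clusters, were all higher, with a median of 0.26. The 7 Ndufaf genes, whose products help assemble complex I without being part of it, split into 4 higher and 3 lower, with a median of 0.01.

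Of the core subunits, Ndufs3 stood at 212 RPKM in MUT and 158 RPKM in HET retinas, a log2 ratio of 0.43. Sdha, the flavoprotein of complex II that also serves the citric acid cycle, stood at 247 RPKM in MUT and 190 RPKM in HET retinas (0.38 on the log2 scale). The accessory subunit Ndufb7 had 73.3 RPKM in MUT and 56.3 RPKM in HET retinas (0.38). These were single genes within a broad, small excess, and none of the 3 had a q under 0.05. The assembly factor Ndufaf2 had the largest excess of all members, at 39.3 RPKM in MUT and 28.0 RPKM in HET retinas (0.49), with p = 0.00945 in the authors' deposited table. Atp5c1, the gamma subunit that turns inside the catalytic head, stood at 281 RPKM in MUT and 239 RPKM in HET retinas (0.23), with p = 0.0123 in the authors' deposited table.

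The genes that were lower in MUT retinas did not share a complex. Cox4i2, the hypoxia-responsive isoform of complex IV subunit 4, stood at 12.3 RPKM in MUT and 20.0 RPKM in HET retinas, a log2 ratio of -0.70, with p = 0.0012 and q = 0.131 in the authors' deposited table. Cox7b, another complex IV subunit, stood at 567 RPKM in MUT and 790 RPKM in HET retinas (-0.48). Its 3 transcripts were each lower in MUT, and 1 of them, at 159 RPKM in MUT and 257 RPKM in HET retinas, had a q of 0.0782, the smallest of any member in the authors' deposited table. Ndufaf1, an assembly factor of the membrane arm of complex I, stood at 14.6 RPKM in MUT and 20.1 RPKM in HET retinas (-0.46), and the accessory subunit Ndufa5 at 64.0 RPKM in MUT and 73.6 RPKM in HET retinas (-0.20).

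**Figure D2:**
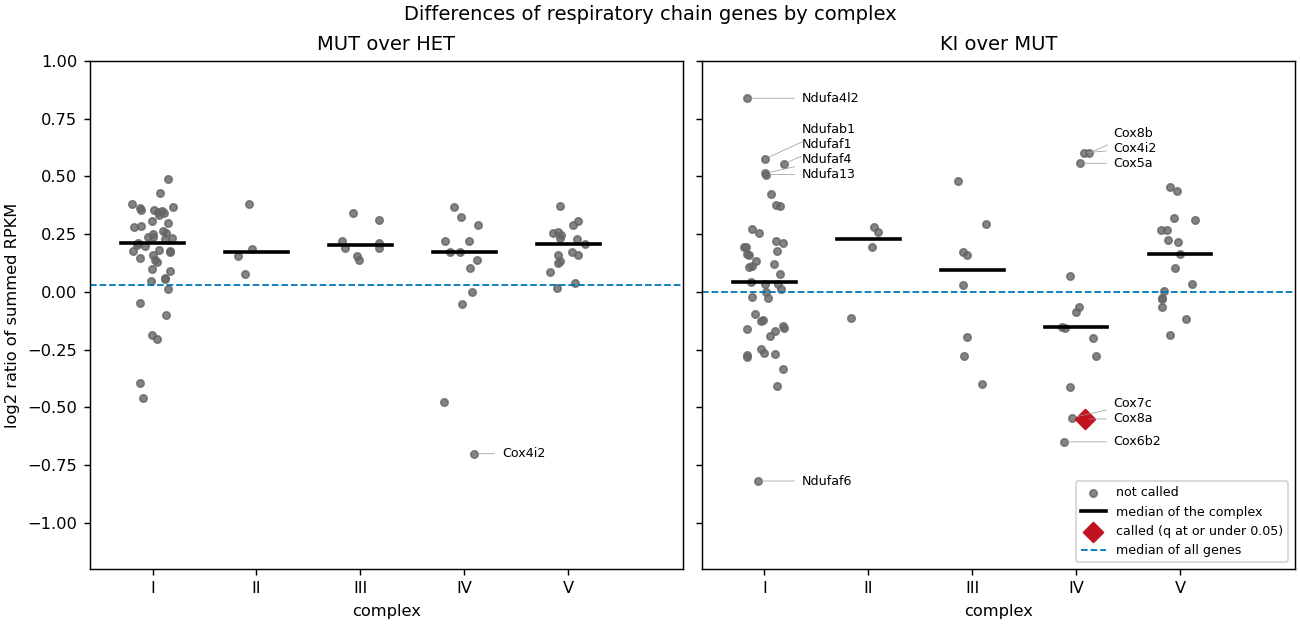
Log2 ratio of summed RPKM for each respiratory chain gene by complex, MUT over HET at left and KI over MUT at right, with complex medians as black bars and the median of all genes as a dashed line. In MUT over HET all 5 complex medians lay between 0.17 and 0.21, whereas in KI over MUT complex IV lay at -0.15 and complex V at 0.16, and Cox8a was the only member called.

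In KI against MUT retinas the set as a whole was centred near 0, and the complexes differed in their medians. Of 88 members 50 were higher and 38 lower in KI, with a median log2 ratio of 0.04, against -0.0021 over all 11989 genes and 0.05 over those with a mean of at least 50 RPKM. By the test in the authors' deposited table, 1 of 88 members was called, Cox8a, lower in KI, where 1.67% of all genes were called and 0.634% were called lower. At a q of 0.1 or less there were 6 members, against 2.54% of all genes, and 17 had an unadjusted p under 0.05, against 14.6%. The share of members called was thus no larger than that of all genes, and the shares at both looser thresholds were larger. Against genes of like level the share at an unadjusted p under 0.05 was not larger. Of the 2112 genes with a mean of at least 50 RPKM, 447 had such a p, and of the 71 members at that level 14 did. At a q of 0.1 or less no share was taken over genes of like level, so the larger share there is not read as particular to the members.

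Cox8a, the ubiquitous isoform of a small membrane subunit of cytochrome c oxidase, fell to 233 RPKM in KI, against 341 RPKM in MUT retinas. The log2 ratio was -0.55, with p = 0.00025 and q = 0.0363 in the authors' deposited table. Its locus on chromosome 19, bases 7215158 to 7217616 of mm10, held a single transcript, so its value did not depend on how reads were shared among isoforms. In the other comparison Cox8a stood at 347 RPKM in MUT and 308 RPKM in HET retinas, so that the KI level lay below both. Its muscle isoform Cox8b had no more than 1.06 RPKM in any group listed.

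Most other complex IV genes were also lower in KI retinas, without passing the test. Of the 14 members 10 were lower, with a median log2 ratio of -0.15. Summed over the complex the level was 3036 RPKM in KI and 3541 RPKM in MUT retinas, a ratio of 0.857, where the sum over all genes gave 1.03. Cox7b stood at 418 RPKM in KI and 557 RPKM in MUT retinas (-0.41 on the log2 scale). Cox5b, a zinc-binding subunit, stood at 526 RPKM in KI and 585 RPKM in MUT retinas (-0.15). Of the 10 members other than the tissue-restricted isoforms, 2 were higher in KI, Cox5a and Cox6a1.

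Cox7c stood at 391 RPKM in KI and 571 RPKM in MUT retinas (-0.55), but its transcripts did not move together. One was listed at 130 RPKM in KI and 336 RPKM in MUT retinas, with q = 0.325 in the authors' deposited table, and the other at 261 RPKM in KI and 235 RPKM in MUT retinas. Cox6b2 stood at 9.32 RPKM in KI and 14.6 RPKM in MUT retinas (-0.65).

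Among the 4 complex IV members that were higher in KI were Cox5a and Cox4i2. Cox5a, a subunit on the matrix side, stood at 241 RPKM in KI and 164 RPKM in MUT retinas, a log2 ratio of 0.56, with q = 0.0868 in the authors' deposited table. Cox4i2 stood at 18.3 RPKM in KI and 12.1 RPKM in MUT retinas (0.60), with p = 0.007 and q = 0.291 in the authors' deposited table. Beside its 20.0 RPKM in HET retinas, Cox4i2 was thus low in MUT alone, and that same MUT group enters both of its ratios.

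**Figure D3:**
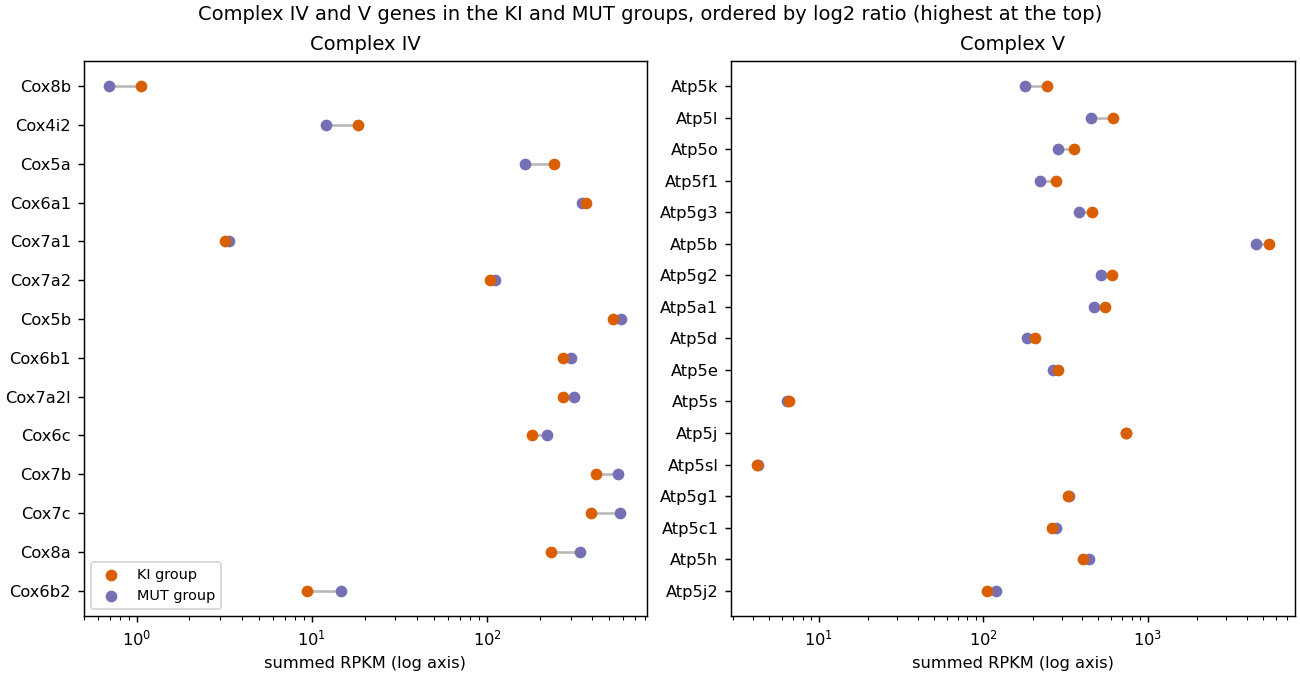
Summed RPKM (log axis) of each gene of complex IV at left and complex V at right, in KI (orange) and MUT (violet) retinas, with genes ordered by log2 ratio and the highest at the top. In complex IV the KI value lay left of the MUT value for 10 of 14 genes, Cox8a among them, and in complex V it lay right of it for 12 of 17.

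In complex V 12 of 17 members were higher in KI retinas and none was called, with a median log2 ratio of 0.16. The sum over the complex was 10911 RPKM in KI and 9425 RPKM in MUT retinas, a ratio of 1.16, to which Atp5b alone contributed 5463 RPKM in KI and 4544 RPKM in MUT retinas. Atp5l, subunit g of the membrane part, stood at 615 RPKM in KI and 455 RPKM in MUT retinas (0.44), with p = 0.00235 and q = 0.158 in the authors' deposited table. Atp5k, subunit e, which joins synthase dimers together with Atp5l, stood at 244 RPKM in KI and 178 RPKM in MUT retinas (0.45). Of the rotor genes, Atp5g2 and Atp5g3 were higher in KI (0.22 and 0.27) and Atp5g1 stood at 326 RPKM in KI and 333 RPKM in MUT retinas. Atp5s and Atp5sl, which carry the symbol without being subunits, differed by no more than 0.04 in either direction.

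Complexes I, II and III held members on both sides. Complex II had 3 of 4 members higher in KI retinas, with a median of 0.23, and complex III 5 of 8, with a median of 0.09. Uqcr11, a small complex III subunit, stood at 338 RPKM in KI and 242 RPKM in MUT retinas (0.48), with q = 0.0986 in the authors' deposited table. Uqcrh, the hinge protein of complex III, stood at 366 RPKM in KI and 483 RPKM in MUT retinas (-0.40). Complex I had 26 of 45 higher, with a median of 0.04.

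Ndufab1, the mitochondrial acyl carrier protein that is also a complex I subunit, stood at 263 RPKM in KI and 176 RPKM in MUT retinas (0.58), with q = 0.0736 in the authors' deposited table. Ndufa13 stood at 91.7 RPKM in KI and 64.5 RPKM in MUT retinas (0.51), with q = 0.0794 in the authors' deposited table. Ndufa12, an accessory subunit of the matrix arm, went the other way, at 151 RPKM in KI and 200 RPKM in MUT retinas (-0.41), with q = 0.0807 in the authors' deposited table. Accessory subunits of complex I thus stood on both sides, 15 higher and 14 lower in KI. The assembly factor Ndufaf6 stood at 23.9 RPKM in KI and 42.1 RPKM in MUT retinas (-0.82), with no transcript of it at a p under 0.05, and Ndufaf1 at 21.0 RPKM in KI and 14.3 RPKM in MUT retinas (0.55). Ndufa4l2, under 5 RPKM in both groups, stood at 4.66 RPKM in KI and 2.60 RPKM in MUT retinas (0.84).

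**Figure D4:**
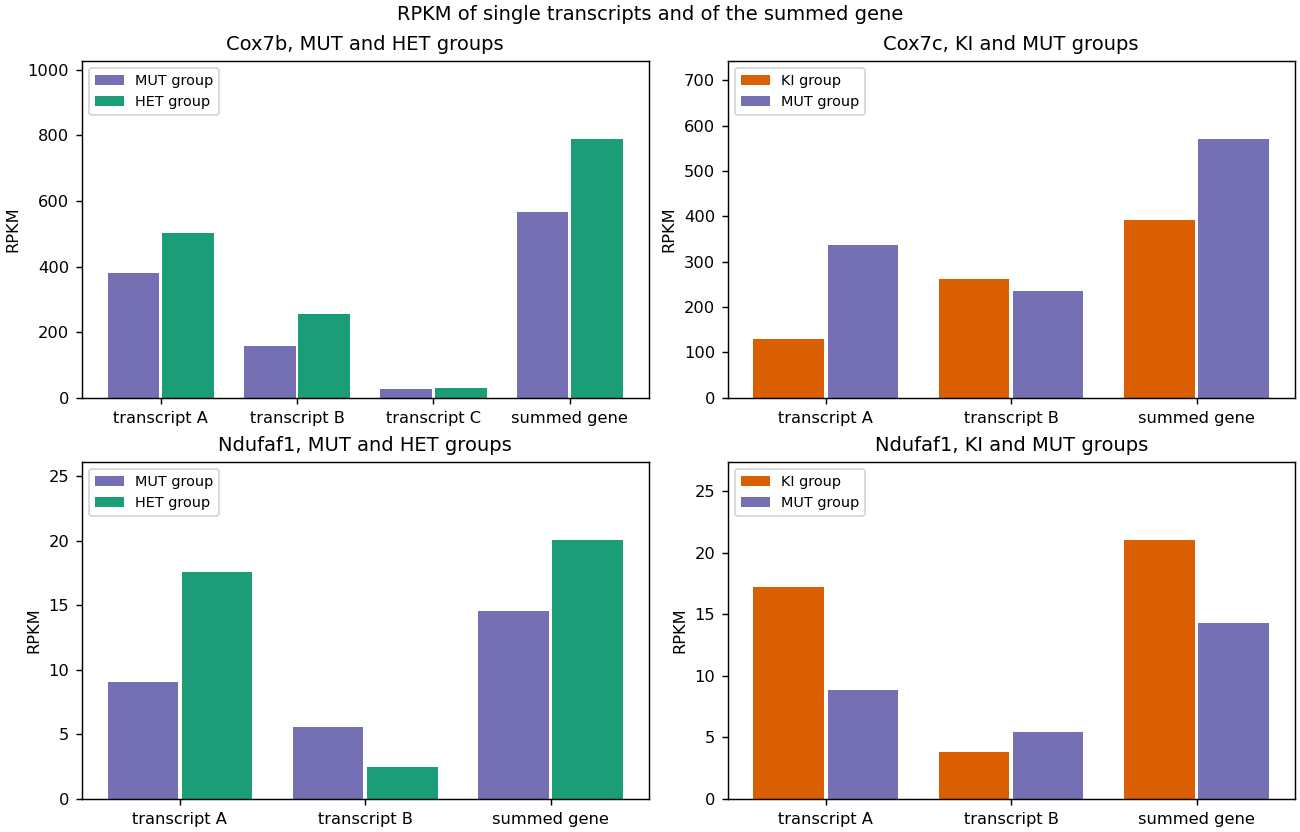
RPKM of each listed transcript and of the summed gene, for Cox7b in MUT and HET retinas, for Cox7c in KI and MUT retinas, and for Ndufaf1 in both comparisons. All 3 transcripts of Cox7b were lower in MUT, whereas the difference of Cox7c lay in transcript A, at 130 RPKM in KI and 336 RPKM in MUT retinas.

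Transcripts were a source of uncertainty for many members. The members were listed with 183 transcripts in the KI comparison and 184 in the MUT comparison, and 38 and 36 members had only 1. For Ndufaf1 the transcript that prevailed in HET retinas stood at 9.05 RPKM in MUT and 17.6 RPKM in HET retinas, and its other transcript at 5.55 RPKM in MUT and 2.47 RPKM in HET retinas. In the KI comparison, which numbers transcripts anew, the Ndufaf1 transcript that led in MUT retinas stood at 17.2 RPKM in KI and 8.88 RPKM in MUT, and the other at 3.79 RPKM in KI and 5.44 RPKM in MUT retinas. Uqcrh held a transcript at 35.2 RPKM in KI and 129 RPKM in MUT retinas, while its main transcript stood at 331 RPKM in KI and 354 RPKM in MUT retinas.

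Set beside HET through the shared MUT samples, KI retinas had the higher level in 73 of 87 members, with a median log2 ratio of 0.23. Over all genes in both tables the median was 0.03, and 6377 of the 11791 with a finite ratio were higher in KI. Over the 2083 with a mean of at least 50 RPKM in KI and HET the median was 0.12. Of these, 1430 of the 2073 with a finite ratio were higher in KI, so abundant genes leaned the same way. The complexes again differed in their medians, 0.40 in complex V, 0.36 in complex II, 0.35 in complex III, 0.22 in complex I and 0.02 in complex IV. This ratio joins tables that were normalized separately, although 98.6% of 5047 genes with a single transcript in both had MUT values within 0.05 of the common shift of 0.03 on the log2 scale. It has no test.

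Of the 88 members, 3 lie on the X chromosome, and the groups differed in sex-linked transcripts. Xist stood at 505 RPKM in MUT and 184 RPKM in HET retinas, and at 174 RPKM in KI and 496 RPKM in MUT retinas. The Y-linked gene Eif2s3y was listed at 0 in MUT retinas in both tables, against 28.6 RPKM in KI and 21.9 RPKM in HET retinas. Kdm5d, also Y-linked, was likewise at 0 in MUT, against 19.3 RPKM in KI and 12.8 RPKM in HET retinas. Y-linked Uty and Ddx3y stood at 0.017 and 0.010 RPKM in MUT retinas. They had 9.4 and 8.8 RPKM in KI, and 3.5 and 4.6 RPKM in HET retinas. None of these was called. Cox7b, lower in MUT than in HET as above, is X-linked, whereas of the other X-linked members Ndufa1 stood at 421 RPKM in MUT and 329 RPKM in HET retinas, and Ndufb11 at 115 RPKM in MUT and 97.5 RPKM in HET retinas. In KI retinas Ndufa1 stood at 342 RPKM against 413 RPKM in MUT, and Ndufb11 at 103 RPKM against 112 RPKM. The part of sex in these differences was not tested. Y-linked transcripts were at or near 0 in the MUT group alone, so sex cannot be told apart from genotype in either comparison. On the autosomes alone 76 of 84 members were higher in MUT than in HET retinas, with a median of 0.19, and 50 of 85 higher in KI than in MUT.

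No gene of the lists that work with the chain was called, where 1.34% of all genes were called in MUT against HET and 1.67% in KI against MUT. Lists this short would hold few or no calls at those shares. Of 22 further chain genes outside the symbol rule, such as Cycs for cytochrome c and the phosphate carrier Slc25a3, 8 were measured and none was called in either comparison. Slc25a3 stood at 424 RPKM in MUT and 345 RPKM in HET retinas, and at 350 RPKM in KI and 416 RPKM in MUT retinas. Cycs stood at 102 RPKM in KI and 146 RPKM in MUT retinas. Another of the 8, 2010107E04Rik, went the other way, at 542 RPKM in KI and 433 RPKM in MUT retinas. The medians of these 8 genes were 0.15 in MUT over HET and -0.22 in KI over MUT, with 2 of them higher in KI. Assembly factors of the chain other than the Ndufaf genes gave 0 called of 40, with medians of 0.13 in MUT over HET and -0.01 in KI over MUT, and Cox17, a copper chaperone for complex IV, stood at 165 RPKM in KI and 111 RPKM in MUT retinas. Regulators of mitochondrial biogenesis and mitochondrial DNA upkeep gave 0 called of 17 (medians 0.11 and -0.08).

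Of the pathways that feed or bypass the chain, only glycolysis held called genes, in KI against MUT. Over all genes 1.34% were called in MUT against HET and 1.67% in KI against MUT. At those shares 0 calls in 19 genes says little, so no difference between the pathways is drawn from it. Enzymes of the citric acid cycle and pyruvate dehydrogenase gave 0 called of 19, with medians of 0.18 in MUT over HET and -0.01 in KI over MUT. Of 17 glycolytic genes none was called in MUT against HET, and 2 rose in KI against MUT retinas. Pgam1, a phosphoglycerate mutase, had 702 RPKM in KI and 350 RPKM in MUT retinas, and Ldha, the lactate dehydrogenase chain that turns pyruvate to lactate, had 689 RPKM in KI and 355 RPKM in MUT retinas, each with q = 0.0104 in the authors' deposited table. Gapdh stood at 1309 RPKM in KI and 1740 RPKM in MUT retinas, so the pathway did not run 1 way, and the list's median was 0.20.

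The makeup of the retinas differed alongside. Fewer cells of a type and less RNA per cell cannot be told apart in whole tissue. Of 15 measured early neuron markers all 15 were lower in MUT than in HET retinas, 9 of them called, with a summed level of 551 RPKM in MUT and 1083 RPKM in HET. All 15 were higher in KI than in MUT, 2 of them called, with sums of 725 RPKM in KI and 540 RPKM in MUT. Progenitor markers were higher in MUT than in HET in 11 of 12, none called, with sums of 3165 RPKM in MUT and 2634 RPKM in HET, and 6 of 12 were higher in KI than in MUT, with sums of 3016 RPKM in KI and 3105 RPKM in MUT. The Notch target Hes5 was called among them, at 21.3 RPKM in KI and 42.3 RPKM in MUT retinas, with q = 0.0104 in the authors' deposited table. These lists hold the defining markers of the labelled tissue, all 12 of the progenitor list being measured.

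Markers of neighbouring tissue were higher in KI retinas. Pigment epithelium markers summed to 116 RPKM in KI and 24.7 RPKM in MUT (11 of 11 higher, 7 called), lens markers to 157 RPKM in KI and 58.7 RPKM in MUT (9 of 10 higher, 3 called, Foxe3 listed at 0 in MUT), red blood cell markers to 131 RPKM in KI and 35.1 RPKM in MUT (7 of 7 higher, 2 called) and periocular mesenchyme markers to 33.4 RPKM in KI and 19.4 RPKM in MUT (6 of 6 higher, 2 called). In MUT against HET none of these lists held a called gene, with sums of 22.7 RPKM in MUT and 19.6 RPKM in HET for pigment epithelium, 59.1 RPKM in MUT and 81.3 RPKM in HET for lens, 34.8 RPKM in MUT and 30.8 RPKM in HET for blood, and 18.1 RPKM in MUT and 19.5 RPKM in HET for mesenchyme. Fewer of these markers were listed there, 5 against 11 for pigment epithelium and 8 against 10 for lens. Blood had 5 against 7 and mesenchyme 3 against 6. Markers not listed there, such as Tyrp1 and Pdgfra, could not be called. Endothelium and macrophage markers summed to 27.6 RPKM in KI and 34.2 RPKM in MUT, and to 34.9 RPKM in MUT and 34.5 RPKM in HET, with none called of 3. Immediate early and stress genes were lower in KI than in MUT in 11 of 11, 8 of them called, with sums of 51.3 RPKM in KI and 208 RPKM in MUT retinas. In MUT against HET 1 of 11 was called, Hspa1a, which was lower in MUT, at 3.81 RPKM against 7.14 RPKM in HET. The whole list summed to 212 RPKM in MUT and 184 RPKM in HET, with 7 of 11 higher in MUT. Every transcript listed in KI against MUT had at least 1.04 RPKM in its higher group. Genes such as Tyrp1 (0.841 RPKM in MUT) and Mlana (0.761 RPKM in MUT) thus entered only through their KI level. Fos (0.536 RPKM in KI) entered only through its MUT level. The counts of genes going 1 way in these lists partly follow from that filter. The part of any of these lists in the differences of the respiratory chain genes was not tested.

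Transcript length and base composition also ran with the MUT over HET ratio. Over 1979 genes with a mean of at least 50 RPKM and a GENCODE coding transcript, Spearman's rho of the log2 ratio with length was -0.24 and with GC content 0.31, as a description across genes of the same pooled libraries, which are not independent replicates. The 497 shortest of those genes had a median log2 ratio of 0.14 and the 495 longest 0.01. By GC content, the 495 lowest had a median of -0.06 and the 495 highest 0.15. Respiratory chain transcripts are short, with a median length of 711 bases against 1434, and their median GC content was 51.9% against 49.8%. Their median of 0.20 lay above those of the 497 shortest and of the 495 highest in GC content. The part of length and GC in that median of 0.20 was not tested. In KI over MUT rho was 0.01 with length and -0.14 with GC content.

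Promoters of respiratory chain genes are known for sites of the nuclear respiratory factor NRF1, of ETS factors such as the GABP complex (also called NRF2) and of YY1. In the 300-base windows of RefSeq (GRCm38.p6, 250 bases before to 50 after a start), 75 of the 88 members matched an entry. The NRF1 letters GCATGCGC, on either strand, were in 12 of the 75, or 16%, against 3.05% of 27025 genes. The ETS letters CCGGAAG were in 17 members, or 22.7%, against 9.93% of genes, and the YY1 letters AAGATGGC in 11 members, or 14.7%, against 3.19%. Those 27025 genes are all genes with such a window, where 12388 genes were measured, so many of them were not measured here. The shares thus do not set the members beside other measured or abundant genes. The 12 members with the NRF1 letters had a median log2 ratio of 0.22 in KI over MUT, with 9 higher, and the 63 without them a median of 0.01, with 33 higher. In MUT over HET both medians were 0.20. For the other letters the KI over MUT medians were close, 0.071 with and 0.035 without the ETS letters, and 0.035 both with and without the YY1 letters. In MUT over HET they were 0.23 with and 0.19 without the ETS letters, and 0.12 with and 0.21 without the YY1 letters. These letters were chosen with the tables known, a match is not a measured binding site, and none of these differences has a test.

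The 150 bases before the RefSeq start are shown for Cox8a, the member called, and for 3 members with the NRF1 letters, picked after their values were seen among those higher in KI than in MUT retinas, Atp5k, Atp5g2 and Ndufaf4, an assembly factor at 28.9 RPKM in KI and 20.2 RPKM in MUT (0.51). They lie on GRCm38.p6 at chr19:7217617-7217766 (minus strand), chr5:108434400-108434549 (minus), chr15:102671048-102671197 (minus) and chr4:24897933-24898082 (plus), each written from 5′ to 3′ along its gene. Capitals mark the NRF1 letters, which in all 3 genes read on both strands and overlap, and in Cox8a none of the searched letters lies in the stretch shown.
Cox8a: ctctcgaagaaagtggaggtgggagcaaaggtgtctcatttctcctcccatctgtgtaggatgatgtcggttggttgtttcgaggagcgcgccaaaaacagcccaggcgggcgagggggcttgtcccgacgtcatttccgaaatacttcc
Atp5k: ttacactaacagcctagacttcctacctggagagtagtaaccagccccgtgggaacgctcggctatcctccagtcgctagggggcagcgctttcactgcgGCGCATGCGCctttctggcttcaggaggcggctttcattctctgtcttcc
Atp5g2: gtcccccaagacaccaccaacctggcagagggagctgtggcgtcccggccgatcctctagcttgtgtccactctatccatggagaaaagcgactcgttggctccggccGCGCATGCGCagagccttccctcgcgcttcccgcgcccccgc
Ndufaf4: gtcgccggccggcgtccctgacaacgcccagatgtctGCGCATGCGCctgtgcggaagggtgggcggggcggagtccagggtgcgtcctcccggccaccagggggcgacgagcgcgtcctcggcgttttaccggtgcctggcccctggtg
The overlapping matches begin 50 bases before the start in Atp5k and 42 bases before it in Atp5g2, and lie farther out, from 113 bases before it, in Ndufaf4. The 300-base window of Cox8a holds the ETS letters outside the stretch shown.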

How the data were processed

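Retinal RNA (RNeasy Micro kit) was sequenced from TruSeq RNA libraries, per the labels' protocols. The submitters' processing notes name Bowtie2, Cufflinks, Cuffdiff and mm10, with no versions. Per the file headers, the deposited tables hold 1 RPKM value per transcript and group, with the p-value and q-value of the authors' test. Each table lists 27311 (MUT against HET) and 26586 (KI against MUT) transcripts, of which 173 and 172 without a usable symbol were left out of gene sums. The deposited q-values equalled a Benjamini-Hochberg adjustment over the table to within 5.26e-07.

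RPKM values were summed by symbol, and log2 ratios of sums were formed without a pseudocount (pandas 2.3.3), as tested on simulated data. The error of a single gene is in the authors' test alone. Alternatives were q of 0.1, unadjusted p, a minimum of 5 RPKM, 1 RPKM added, the most abundant transcript only, subunits only, and centring on other genes. The members named were drawn by a rule. It took the called ones, the 3 highest of each complex, the smallest p-values, isoform partners and X-linked members. It also took the 4 largest rises and falls among members with at least 5 RPKM in either group. Not every member that met the rule has its values given. From the other lists, genes were drawn mostly from the called or the most abundant ones, and not all of those are named. Examples outside that rule (Atp5a1, Atp5k, Atp5l, Atp5s, Atp5sl, Cox6a1, Ndufaf4 and Cycs) were chosen after their values were seen. Members and lists were chosen with earlier results of these data known.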

Additional observations from a re-analysis of the deposited data

How the results depend on the processing

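The count of members called depended on the threshold. In MUT against HET it was 0 at a q of 0.05, 1 at a q of 0.1 and 12 at an unadjusted p under 0.05, and in KI against MUT it was 1, 6 and 17. A minimum of 5 RPKM, or the most abundant transcript of each gene alone, left these counts at 0 and 1. The median log2 ratio of members in MUT over HET was 0.20. It was 0.11 after subtracting the median of genes with a mean of at least 50 RPKM, an alternative chosen after seeing the data. The same subtraction brought KI over HET across tables to 0.11, against 0.23, and turned the median of KI over MUT to -0.0089, so no direction is drawn for the set as a whole in that comparison. In each, the shift is the median of those abundant genes. All 3 medians moved by less than 0.05 with 1 RPKM added, with a minimum of 5 RPKM, with subunits only and with the median of all genes subtracted, as did MUT over HET and KI over MUT with the most abundant transcript only, which was not run across tables. No paired analysis was possible because the files hold 1 pooled value per group, and for the same reason no replicate could be left out. Depth per sample is unknown, so it cannot be said which differences the libraries could have shown.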
